A study of Citrus sinensis with 6 samples.

Results

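Gibberellin 2-oxidases switch off the growth hormone gibberellin. Of their 7 genes that could be tested in sweet orange leaves after 14 days of salt stress, 1 passed as lower, close to the threshold, and 0 passed as higher (limma), where 1.93% of all tested genes passed as lower and 1.31% as higher. The genes were taken by their annotation, as every gene whose deposited molecular function terms name gibberellin 2-beta-dioxygenase activity. This gave 10 of the 29875 genes listed, of which 4 are annotated for C-19 gibberellins and 6 for C-20 gibberellins. RNA-seq was run on leaves of in vitro sweet orange (*Citrus sinensis*) seedlings given 2% NaCl for 14 days, with 3 libraries, and on leaves of seedlings given no NaCl for the same time, with 3 libraries. Each library came from several pooled seedlings, and no mutant or transgenic line was used. The titles name the sampled tissue as leaf under NaCl but as leaf blades, with sterile water, in the control, so the part of the leaf sampled cannot be told apart from the salt treatment. The protocol in the labels names a boron treatment of 0.01 mg/L for 25 days, whereas the titles and treatment labels name NaCl, which is the naming used here.

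Gibberellins are diterpenoid hormones that promote stem elongation, leaf expansion and germination by triggering the breakdown of DELLA proteins, which repress growth. Gibberellin 2-oxidases belong to the 2-oxoglutarate-dependent dioxygenases and add a hydroxyl group to the gibberellin skeleton, which makes the molecule unable to act as a hormone. Enzymes of the C-19 type act on the bioactive gibberellins and their direct precursors, and enzymes of the C-20 type act on earlier precursors that still carry an additional carbon. In *Arabidopsis*, raised expression of gibberellin 2-oxidase genes gives dwarf plants, and a C-20 type gene is known to respond to high salt.

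Levels are given as FPKM, the number of sequenced fragments relative to gene length and library depth. They rest on 17307079 to 19520980 reads in the NaCl libraries and on 14325408 to 17558452 reads in the control libraries, as recovered from the steps between the deposited values. Along the first principal component of all tested genes, which carried 53.7% of the variance, the NaCl libraries lay at 25.6, 51.7 and 50 and the control libraries at -51.5, -9.5 and -66.3, so that control replicate 2 was the control closest to the NaCl group. Genes of photosynthesis, the markers of green leaf tissue, summed to 10124, 7443 and 11285 FPKM in NaCl libraries and to 9627, 4889 and 6073 FPKM in control libraries. Of 67 such genes 7 were at 0 in all libraries and 0 of 54 tested passed. Genes of suberin and Casparian strip formation, more typical of roots and barrier tissue, summed to 35.3, 96.1 and 41.9 FPKM in NaCl libraries and to 35.1, 41.8 and 51.1 FPKM in control libraries. NaCl replicate 2 was thus the highest for the suberin genes, and it was also the library in which several gibberellin 2-oxidase genes stood apart. Of the 30 suberin genes 3 were at 0 in all libraries and 0 of 11 tested passed. The 9 genes with a shoot apical meristem term summed to 125, 147 and 132 FPKM in NaCl libraries and to 94, 106 and 80.4 FPKM in control libraries. Every NaCl library lay above every control library, which was also so for 23.6% of all tested genes taken singly, and 0 of the 9 passed. The part of these tissues in the results that follow was not tested. In bulk leaves, fewer cells of a type and less RNA per cell cannot be told apart.

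**Figure D1:**
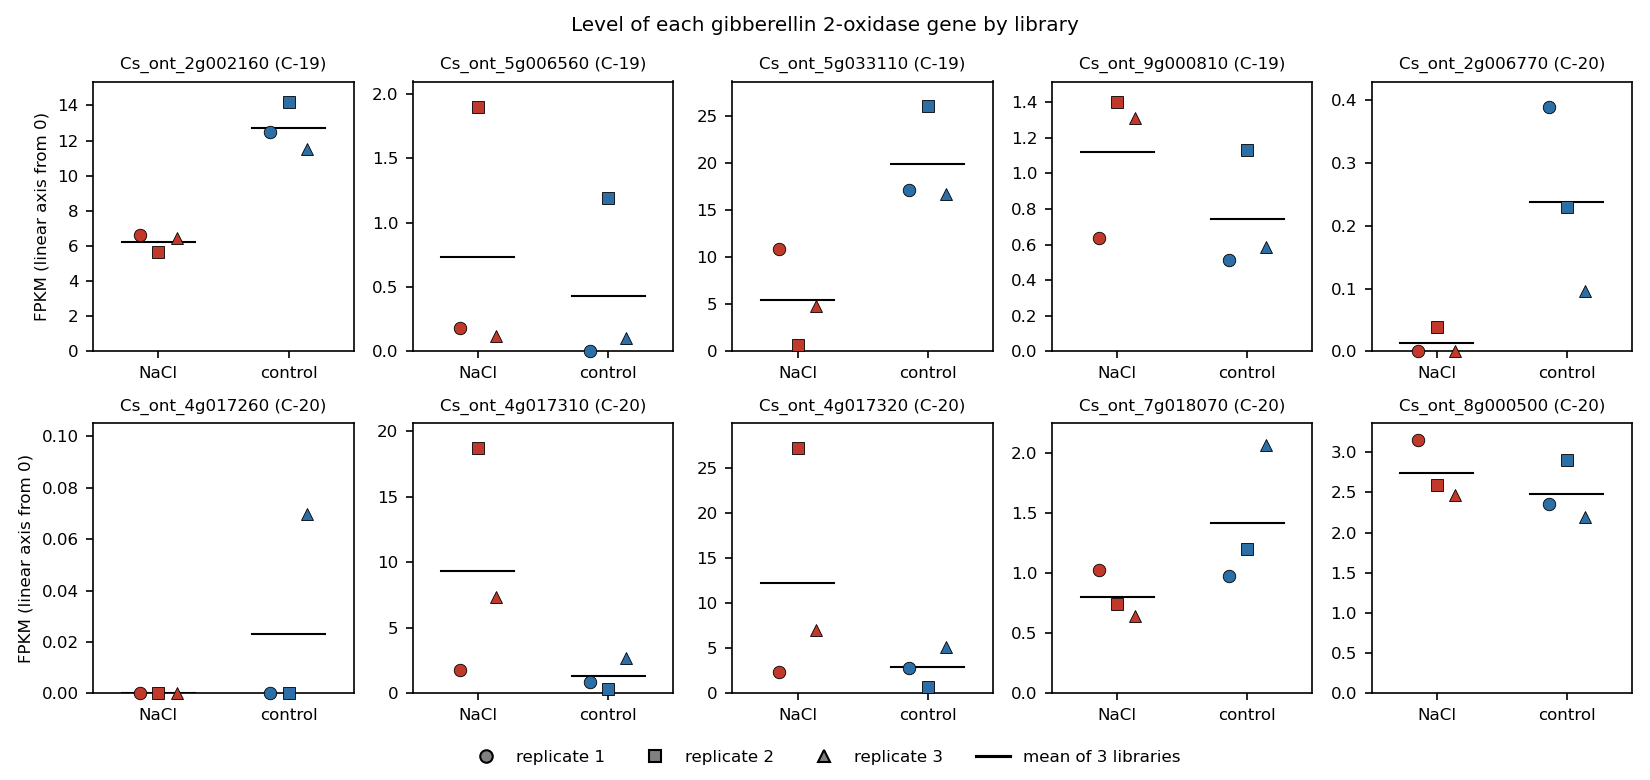
FPKM of each of the 10 gibberellin 2-oxidase genes (linear axes from 0, a separate scale for each gene) in 3 NaCl libraries and 3 control libraries, with a line at the mean. For Cs_ont_2g002160 and Cs_ont_5g033110 all NaCl libraries lie below all control libraries, and for Cs_ont_4g017310 and Cs_ont_4g017320 NaCl replicate 2 stands far above the rest.

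The 1 gene that passed the test was Cs_ont_2g002160, a C-19 type gene, which was lower in NaCl leaves. It had 6.6, 5.67 and 6.47 FPKM in NaCl leaves, against 12.5, 14.2 and 11.5 FPKM in control leaves. All NaCl libraries lay below all control libraries, and the replicates of each group were close together. The means were 6.25 ± 0.505 FPKM in NaCl leaves and 12.7 ± 1.36 FPKM in control leaves (SD, n = 3 each), a ratio of 0.491. On the scale of log2(FPKM + 1), used for all fold changes here unless another setting is named, the log2 fold change was -0.92 (SE 0.15, 95% confidence interval -1.29 to -0.55, adjusted p = 0.042 from limma). These values rest on 194 to 243 reads per NaCl library and 318 to 421 reads per control library. The call was close to the threshold. It was lost with no filter on low levels and with the replicate number as a block (limma adjusted p = 0.0592 and 0.0991), and when any single library other than control replicate 2 was left out (adjusted p = 0.0641 to 0.193 from limma), and it held with control replicate 2 left out, at -0.84 (limma adjusted p = 0.0206).

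The most abundant gibberellin 2-oxidase gene of control leaves was Cs_ont_5g033110, also of the C-19 type, and its lower level in NaCl leaves did not pass the test. It had 10.9, 0.72 and 4.81 FPKM in NaCl leaves, against 17.1, 26 and 16.7 FPKM in control leaves. The groups did not overlap, and within the NaCl group replicate 2 was far below the other libraries, with 21 reads against 310 and 154. The means were 5.48 ± 5.13 FPKM in NaCl leaves and 19.9 ± 5.24 FPKM in control leaves (SD, n = 3 each), so that the control mean was 3.64 times that of NaCl. The log2 fold change was -2.06 (SE 0.66, 95% confidence interval -3.62 to -0.50, adjusted p = 0.103 from limma). Leaving out NaCl replicate 2 gave -1.30 (limma adjusted p = 0.0941).

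The other pair of C-19 type genes was low. Cs_ont_9g000810 had 0.635, 1.4 and 1.31 FPKM in NaCl leaves and 0.512, 1.13 and 0.586 FPKM in control leaves, with overlapping groups and a log2 fold change of 0.28 (95% confidence interval -0.31 to 0.86, adjusted p = 0.461 from limma). Cs_ont_5g006560 had 0.178, 1.9 and 0.118 FPKM in NaCl leaves and 0, 1.19 and 0.107 FPKM in control leaves. Its level was carried by replicate 2 of each group, with 44 reads in that NaCl library and 23 in that control library, and by 0 to 4 reads in all others. It was below the filter for testing, which asked for 0.5 FPKM in at least 3 libraries. A count of 0 in control replicate 1 allows up to 3 reads, or 0.131 FPKM.

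Among the C-20 type genes, Cs_ont_4g017310 and Cs_ont_4g017320 had the highest means in NaCl leaves, but these means were set mainly by replicate 2 and neither gene passed the test. Cs_ont_4g017310 had 1.81, 18.7 and 7.38 FPKM in NaCl leaves, against 0.891, 0.315 and 2.73 FPKM in control leaves. NaCl replicates 2 and 3 lay above all controls, while NaCl replicate 1 lay below control replicate 3. The means were 9.31 ± 8.63 FPKM in NaCl leaves and 1.31 ± 1.26 FPKM in control leaves (SD, n = 3 each), a ratio of 7.09, with a log2 fold change of 1.88 (SE 0.73, 95% confidence interval 0.15 to 3.61, adjusted p = 0.143 from limma). Leaving out NaCl replicate 2 gave 1.21 (limma adjusted p = 0.238).

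Cs_ont_4g017320, the next gene by number, had 2.43, 27.2 and 7.08 FPKM in NaCl leaves, against 2.81, 0.663 and 5.17 FPKM in control leaves. NaCl replicates 2 and 3 were again the highest and control replicate 2 the lowest, with overlap between the groups. The means were 12.2 ± 13.2 FPKM in NaCl leaves and 2.88 ± 2.25 FPKM in control leaves (SD, n = 3 each), a ratio of 4.25. The log2 fold change was 1.44 (SE 0.81, 95% confidence interval -0.49 to 3.37, adjusted p = 0.266 from limma), and it was 0.63 without NaCl replicate 2 (adjusted p = 0.517 from limma).

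The 2 genes ranked the 6 libraries almost alike. Cs_ont_4g017310 held 20, 213 and 92 reads in NaCl leaves and 10, 3 and 25 reads in control leaves, and Cs_ont_4g017320 held 17, 196 and 56 reads in NaCl leaves and 20, 4 and 30 reads in control leaves. The gene lengths implied by the FPKM values were 639 and 405 bases, shorter than those of the other 8 genes. The genes are listed next to each other. Whether they are near-identical copies that share reads was not tested, as no sequence was used. The reads of Cs_ont_4g017310 relative to those of Cs_ont_4g017320 were 1.18, 1.09 and 1.64 in NaCl libraries and 0.5, 0.75 and 0.833 in control libraries. Whether the 2 are parts of 1 gene was not tested. Taken as 1 gene, they had 2.05, 22 and 7.26 FPKM in NaCl leaves and 1.64, 0.45 and 3.68 FPKM in control leaves, which again left NaCl replicate 1 within the control range.

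**Figure D2:**
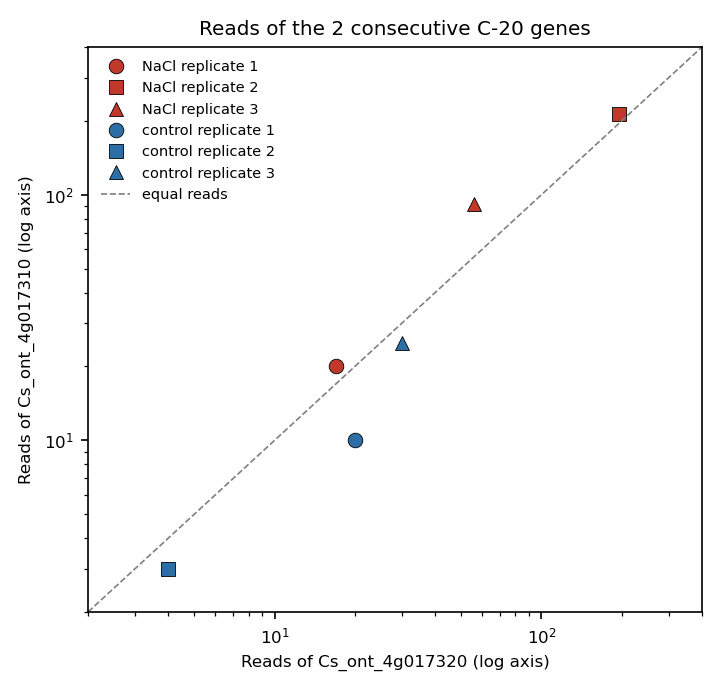
Reads of Cs_ont_4g017310 against reads of Cs_ont_4g017320 in the 6 libraries (log axes, dashed line at equal reads). NaCl replicate 2 has 213 and 196 reads and control replicate 2 has 3 and 4 reads. All NaCl points lie above the line and all control points below it.

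The remaining C-20 type genes were low, and none passed the test. Cs_ont_8g000500 was the steadiest, with 3.15, 2.59 and 2.47 FPKM in NaCl leaves and 2.36, 2.9 and 2.19 FPKM in control leaves. Its log2 fold change was 0.10 (SE 0.18, 95% confidence interval -0.33 to 0.54, adjusted p = 0.717 from limma), and the sign turned to -0.035 with voom on recovered reads. Cs_ont_7g018070 had 1.03, 0.743 and 0.642 FPKM in NaCl leaves and 0.977, 1.2 and 2.07 FPKM in control leaves, with a log2 fold change of -0.40 (SE 0.23, 95% confidence interval -0.96 to 0.16, adjusted p = 0.279 from limma). The groups of both genes overlapped.

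A further pair of C-20 type genes was almost silent. Cs_ont_2g006770 had 0, 0.0385 and 0 FPKM in NaCl leaves, against 0.39, 0.23 and 0.0956 FPKM in control leaves. All NaCl libraries lay below all control libraries, on very few reads, 1 in all NaCl libraries together and 17 in all control libraries together. Relative to depth, the ratio of NaCl reads to control reads was 0.0504, with an exact 95% interval of 0.00121 to 0.322 that covers counting error only. A count of 0 allows up to 3 reads, or 0.119 and 0.105 FPKM in NaCl replicates 1 and 3, which is above the level of control replicate 3. Cs_ont_4g017260 had 0 reads in each NaCl library and 0, 0 and 1 read in control libraries, so no ratio is given. Its level was at most 0.153 to 0.173 FPKM in NaCl leaves, the limit that a count of 0 allows. Neither gene entered the test.

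The order of the genes differed between the groups. In NaCl leaves the means ran from Cs_ont_4g017320 through Cs_ont_4g017310, Cs_ont_2g002160, Cs_ont_5g033110, Cs_ont_8g000500, Cs_ont_9g000810, Cs_ont_7g018070, Cs_ont_5g006560 and Cs_ont_2g006770 to Cs_ont_4g017260. In control leaves they ran from Cs_ont_5g033110 through Cs_ont_2g002160, Cs_ont_4g017320, Cs_ont_8g000500, Cs_ont_7g018070, Cs_ont_4g017310, Cs_ont_9g000810, Cs_ont_5g006560 and Cs_ont_2g006770 to Cs_ont_4g017260. Of the 9 neighbouring pairs, 2 did not overlap in NaCl leaves, namely Cs_ont_8g000500 above Cs_ont_9g000810 and Cs_ont_5g006560 above Cs_ont_2g006770. The second of these rests on counts of 0, which allow up to 0.119 FPKM for Cs_ont_2g006770, while the lowest NaCl library of Cs_ont_5g006560 had 0.118 FPKM, so this pair was not separable at this depth. In control leaves 4 pairs did not overlap, among them both steps below Cs_ont_5g033110 and Cs_ont_2g002160. Another of them, Cs_ont_2g006770 above Cs_ont_4g017260, rests on counts of 0. These allow up to 0.171 and 0.201 FPKM for Cs_ont_4g017260 in control replicates 1 and 2. Cs_ont_2g006770 had 0.0956 FPKM in control replicate 3, so this pair was not separable either. All other neighbours overlapped, including the 4 leading genes of NaCl leaves. Ranked among the 23073 genes above 0, Cs_ont_5g033110 stood at percentile 50.2 in NaCl leaves and 77.7 in control leaves, and Cs_ont_4g017310 stood at percentile 59.4 in NaCl leaves and 33.7 in control leaves.

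The summed level of all 10 genes did not separate the groups, while the sum of the C-19 type and the share of the C-20 type did. Among all tested genes, taken singly, the groups did not overlap for 36.1% in either direction. The sum was 26.7, 59 and 30.3 FPKM in NaCl leaves and 37.5, 47.8 and 41.3 FPKM in control leaves. The C-19 type genes summed to 18.3, 9.7 and 12.7 FPKM in NaCl leaves, against 30.1, 42.5 and 28.9 FPKM in control leaves, and all NaCl libraries lay below all control libraries. The C-20 type genes summed to 8.42, 49.3 and 17.6 FPKM in NaCl leaves, against 7.43, 5.3 and 12.3 FPKM in control leaves, and these groups overlapped.

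The C-20 type thus made up 31.5%, 83.6% and 58% of the summed level in NaCl leaves and 19.8%, 11.1% and 29.9% in control leaves. Every NaCl library had a higher share than every control library, by a narrow margin between NaCl replicate 1 and control replicate 3. Without Cs_ont_4g017320, the shortest of these genes, the shares were 24.6%, 69.5% and 45.2% in NaCl leaves and 13.3%, 9.84% and 19.8% in control leaves. Cs_ont_5g033110 alone gave 40.8%, 1.22% and 15.9% of the sum in NaCl leaves and 45.6%, 54.4% and 40.5% in control leaves. It was the leading gene of every control library and of NaCl replicate 1, whose share lay within the control range. Sums and shares were not tested, because they were formed over genes chosen with results of these data known.

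**Figure D3:**
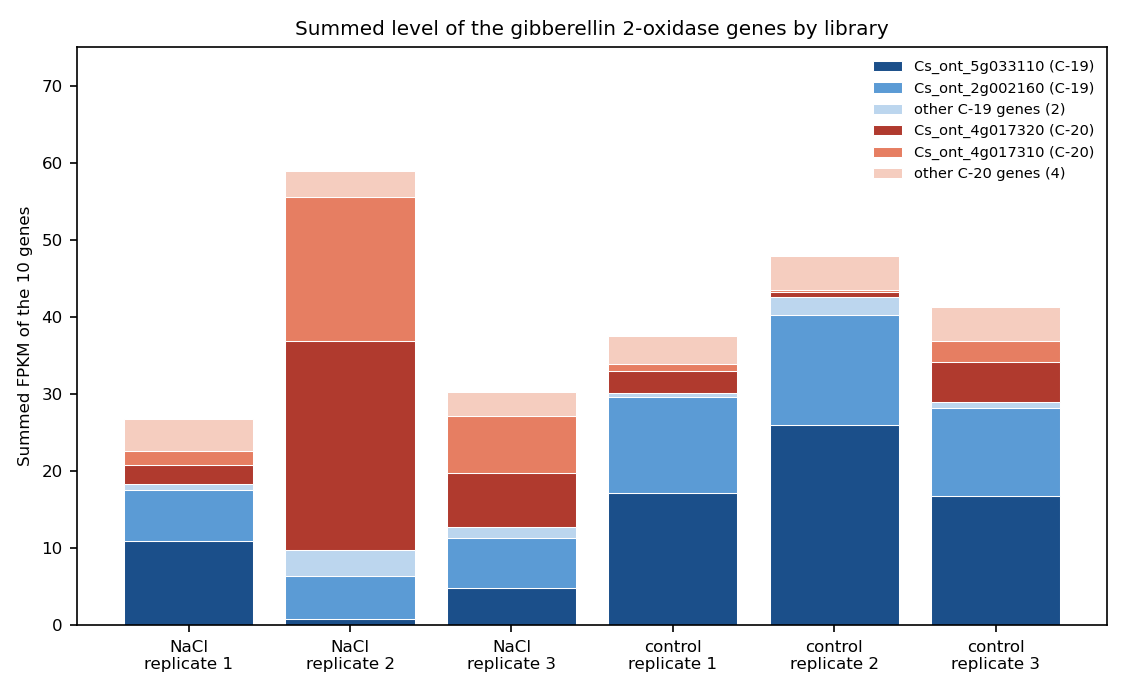
Summed FPKM of the 10 gibberellin 2-oxidase genes in each library (linear axis from 0), divided into the leading C-19 type genes (blue) and C-20 type genes (red). Blue makes up most of each control bar, and in NaCl replicate 2 red makes up 83.6% of a bar of 59 FPKM.

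Across the whole table, 226 of 17285 tested genes were higher in NaCl leaves (1.31%) and 333 were lower (1.93%) at an adjusted p of at most 0.05, or 3.23% in either direction. Of the 10 gibberellin 2-oxidase genes 7 were tested, and of these 1 was lower and 0 were higher (limma). Where a log2 fold change of at least 1 was also asked for, 0 of the 7 were lower or higher, against 1.75% of all tested genes lower and 0.978% higher. At an unadjusted p of at most 0.05, 3 of the 7 passed, Cs_ont_2g002160 and Cs_ont_5g033110 below control and Cs_ont_4g017310 above it, where 11.2% of all tested genes passed as lower and 19.1% as higher. With voom on recovered reads 1 of the 7 was lower and 0 were higher, against 0.688% of all tested genes lower and 0.226% higher, and with no filter or with the replicate block 0 were lower and 0 higher. The groups did not overlap for 2 of the 7 tested genes, both lower in NaCl leaves, while such separation was seen for 12.4% of all tested genes towards lower and 23.6% towards higher levels. The median log2 fold change of the 7 genes was 0.10, with 4 positive and 3 negative. Over all tested genes the median was 0.18, and 64.7% were positive. In the setting without control replicate 2, in which Cs_ont_2g002160 was again the 1 gene called, the share of the whole table called was 7.89% for lower and 16.5% for higher levels.

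Some other annotation terms went with the type of the genes, which was itself taken from the annotation. All 4 C-19 type genes carry the terms for gibberellin catabolism and for response to a light stimulus, and the catabolism term is carried by no other listed gene. Cs_ont_2g002160 and Cs_ont_5g006560 also carry a term for red or far-red light, the signal read by phytochromes. Cs_ont_2g002160 carries the term for gibberellin biosynthesis as well, which no other gibberellin 2-oxidase gene carries. The 3 C-20 type genes Cs_ont_4g017260, Cs_ont_4g017310 and Cs_ont_4g017320 carry the term for response to salt stress, which 251 genes have in all. Of 202 tested genes with that term 2 were higher and 3 lower in NaCl leaves, with a median log2 fold change of 0.22. Among all tested genes 1.31% were higher and 1.93% lower, with a median of 0.18. All gibberellin 2-oxidase genes other than Cs_ont_8g000500 are placed in diterpenoid biosynthesis. Of 22 tested genes of other 2-oxoglutarate-dependent dioxygenases, 0 were higher and 0 lower, with 16 positive and 6 negative log2 fold changes. Positive log2 fold changes made up 64.7% of all tested genes.

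Upstream of inactivation, gibberellin is made from geranylgeranyl diphosphate by cyclases, cytochrome P450 oxidases and further dioxygenases. Of 35 other genes of gibberellin synthesis, reception and signalling, 14 were at 0 in all libraries, 12 were tested, and 0 were higher and 0 lower (limma). Their log2 fold changes were positive in 9 and negative in 3, with a median of 0.21. Over all tested genes 64.7% were positive, the median was 0.18, and 1.31% were called higher and 1.93% lower. None of the 3 genes of ent-copalyl diphosphate synthase, the first cyclase, was high enough to test. The single tested gene of ent-kaurene synthase, Cs_ont_9g028090, had a log2 fold change of 0.16, and that of ent-kaurene oxidase, Cs_ont_3g029900, had 0.03.

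Of the 2 genes of ent-kaurenoate oxidase, Cs_ont_2g018550 was at 0 in all libraries. The other, Cs_ont_5g000120, had 10.5, 11.9 and 12.6 FPKM in NaCl leaves, against 5.95, 8.5 and 6.02 FPKM in control leaves. All NaCl libraries lay above all control libraries, but the gene did not pass the test (log2 fold change 0.71, SE 0.18, adjusted p = 0.0746 from limma). Gibberellin 20-oxidases carry out the successive oxidations that remove the additional carbon, and 8 of their 13 genes were at 0 in all libraries. The 1 tested gene, Cs_ont_9g024810, had 0.987, 0.224 and 1.14 FPKM in NaCl leaves and 0.292, 2.29 and 0 FPKM in control leaves. Gibberellin 3-beta-dioxygenases make the bioactive forms, and of their 9 genes Cs_ont_4g003450 and Cs_ont_4g025620 were tested. Cs_ont_4g003450 had 3.39, 5.49 and 4.95 FPKM in NaCl leaves and 6.64, 0.87 and 0.723 FPKM in control leaves, where control replicate 1 was above every other library. Cs_ont_4g025620 had 15.5, 20.8 and 18.9 FPKM in NaCl leaves and 11.5, 25.1 and 11.8 FPKM in control leaves, with overlapping groups and control replicate 2 the highest (log2 fold change 0.26, limma adjusted p = 0.585).

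The receptor GID1 binds gibberellin, and both genes carrying the gibberellin binding term overlapped between the groups. Cs_ont_3g016840 had 26.7, 24.5 and 34 FPKM in NaCl leaves and 16.2, 28.1 and 13.5 FPKM in control leaves. Cs_ont_5g009330 had 28.4, 61.1 and 36.1 FPKM in NaCl leaves and 27.6, 44.9 and 21.5 FPKM in control leaves. Replicate 2 was the highest control library for both, and their log2 fold changes were 0.59 and 0.40 (limma adjusted p = 0.2 and 0.464). Among the DELLA genes, *CsGRAS8* had a log2 fold change of -0.10, *CsGRAS15* of -0.65 and *CsGRAS27* of 1.15 (adjusted p = 0.848, 0.262 and 0.0575 from limma). *CsGRAS27* had 13.7, 15 and 19.7 FPKM in NaCl leaves and 5.07, 9.61 and 5.93 FPKM in control leaves. For this gene all NaCl libraries lay above all control libraries, and the groups of the other DELLA genes overlapped. The paper, with DESeq2 on counts, reports *CsGRAS15* as significantly lower and *CsGRAS27* as significantly higher. It also measured both by qRT-PCR. Without control replicate 2, 4 of the 12 pathway genes were higher, Cs_ont_5g000120, Cs_ont_3g016840, Cs_ont_4g025620 and *CsGRAS27*, with 0.86, 0.88, 0.61 and 1.39 as their log2 fold changes (limma adjusted p = 0.0204, 0.0287, 0.0473 and 0.0168). In that setting 16.5% of all tested genes were called higher, and with all libraries none of these 4 genes passed.

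**Figure D4:**
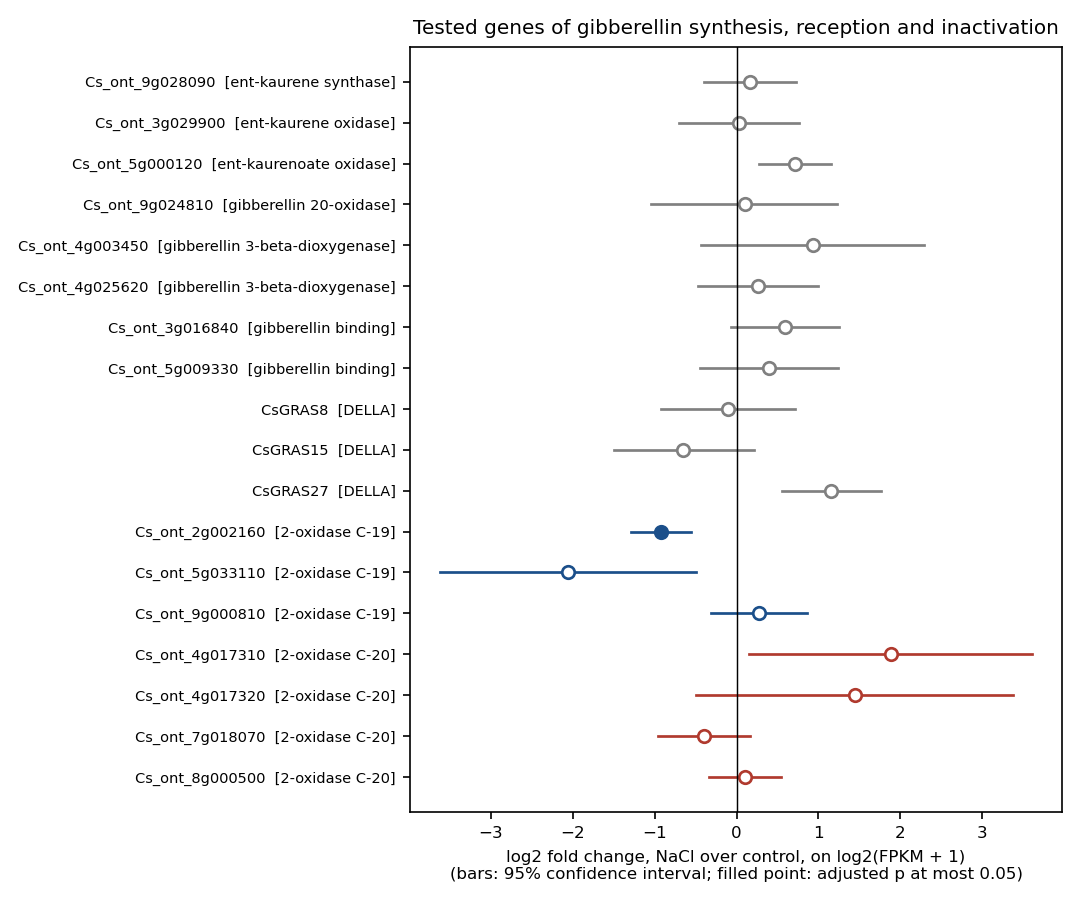
Log2 fold change (NaCl over control, on log2(FPKM + 1)) with its 95% confidence interval for tested genes of gibberellin synthesis, reception and DELLA repression (grey) and for the 7 tested gibberellin 2-oxidase genes (C-19 type blue, C-20 type red). Cs_ont_2g002160, at -0.92, is the single filled point, which marks an adjusted p of at most 0.05, and the intervals of Cs_ont_5g033110, Cs_ont_4g017310 and Cs_ont_4g017320 are the widest.

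The pattern of Cs_ont_2g002160 over the 6 libraries was compared with that of 4764 annotated genes with a mean of at least 5 FPKM. The most alike were Cs_ont_9g000370, annotated as a DNA-binding transcription factor (Pearson r = 0.987), and Cs_ont_4g003610, annotated with SNARE binding (Pearson r = 0.98). Cs_ont_9g000370 had 20.9, 20.1 and 21.2 FPKM in NaCl leaves and 23.5, 24.4 and 23.8 FPKM in control leaves. Both followed the order of the groups with a much smaller difference, and their log2 fold changes were -0.19 and -0.16. In all, 20 genes had a correlation of at least 0.95. The 6 points share the group difference and the scaling of each library, so these correlations are a description.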

How the data were processed

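Leaf RNA-seq of 3 NaCl and 3 control libraries was used, grouped by the treatment labels. Per the paper's methods the replicates are biological. The authors trimmed the reads, aligned them with HISAT2 and deposited FPKM per gene and library; their methods name featureCounts for counting, whereas the submitters' processing notes name HTSeq. Identifiers are of the Cs_ont kind. No matching genome was used here, and 0 identifiers matched the reference gene table, so no coordinates or sequences are given. The authors' own group means, fold changes, p-values and calls were not used, apart from naming the paper's calls of *CsGRAS15* and *CsGRAS27*.

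Whole reads were recovered from the FPKM steps as the smallest whole numbers that fit (100% of 23073 genes above 0, relative tolerance 1e-08), so reads and lengths are inferred. Genes reaching 0.5 FPKM in 3 or more libraries (17285 of 29875) were tested with limma 3.58.1 (R 4.3.3, mean-variance trend) on log2(FPKM + 1). Benjamini-Hochberg adjustment ran over all of them, with calls at an adjusted p up to 0.05. The smallest p of an exact permutation test of 3 against 3 libraries is 0.1. The fit was tested on simulated data. Python 3.11.15 and pandas 2.3.3 read the tables.

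Named genes were all 10 gibberellin 2-oxidase genes, the synthesis, reception and DELLA genes of the pathway list, and, for the gibberellin 2-oxidase gene with the lowest p, the 2 annotated genes of at least 5 FPKM most correlated with it. The members and lists were chosen with earlier results of these data known, and the list of other dioxygenases after the annotation had been read. Alternatives were other filters, pseudocounts and scalings, voom on recovered reads, a replicate block, and each library left out.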

Additional observations from a re-analysis of the deposited data

How the results depend on the processing

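Over all alternatives, 0 gibberellin 2-oxidase genes were higher. The count of lower genes, 1 at first, was 0 with no filter and with the replicate block, and 0 to 1 with single libraries left out. It was also 0 with a log2 fold change of at least 1 required on log2(FPKM + 1). Cs_ont_2g002160 kept its negative sign throughout, with an adjusted p of 0.0592 with no filter, 0.0399 with a filter of 1 FPKM, 0.0335 with quantile normalization and 0.048 with voom (limma). The replicate block left it at -0.92 on the log2 scale (limma adjusted p = 0.0991). The deviations of same-numbered libraries from their group means correlated at -0.0343, 0.026 and -0.071, and those of differently numbered libraries at -0.0733 to 0.128. Whether same-numbered libraries were handled together was not tested. Cs_ont_8g000500 turned to -0.035 with voom, where its adjusted p was 0.931. Quantile and upper-quartile scaling moved the median log2 fold change of all genes to 0.08 and voom moved it to 0.05, against 0.18 at first. Relative to these medians Cs_ont_2g002160 stayed lower, at -1.10, -1.03 and -1.19 before subtraction.

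Of all tested genes, 226 were higher and 333 lower at first. The counts were 12 and 29 with no filter, 128 and 207 with a pseudocount of 0.01, 39 and 119 with voom, and 1 and 6 with the replicate block, and 122 were higher with upper-quartile scaling. They ran from 0 to 2856 higher and from 0 to 1363 lower with single libraries left out. Pathway genes called higher numbered 0 to 4 with single libraries left out, and 0 under all other settings. The cause of these changes was not tested. Cs_ont_4g017320, a short C-20 type gene, rests on 4 to 196 reads per library. Relative to depth, its ratio of NaCl reads to control reads was 4.27. The exact interval, at the level used above, was 3.18 to 5.83 and covers counting error only. For Cs_ont_4g017310 the ratio was 7.33, with an interval of 5.22 to 10.5. These intervals leave out the spread between replicates, which for Cs_ont_4g017320 was 17, 196 and 56 reads in NaCl libraries. What kept these genes from passing was not tested.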
